A study of Homo sapiens with 2 samples.

Results

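The 10 genes described here are early-response genes outside the AP-1 family. They were taken by symbol from the gene table: EGR1, KLF6, KLF10, IER2, IER3, IER5, BTG1, BTG2, ZFP36 and DUSP1. All 10 were among the 19927 gene rows, and all 10 were among the 12540 genes kept, which reached 1 CPM (the usual count scaled by library size) in either library. Messenger RNA was sequenced from Huh7, an established human hepatocellular carcinoma line. The shControl library came from cells with a control hairpin, which another label calls WT. The shPPIL1 library came from cells with a hairpin against PPIL1, a spliceosomal cyclophilin, and is titled shPPIL1#1. There was 1 library per group, so there is no replicate check and no test between conditions.

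Immediate-early genes are transcribed within minutes of a growth factor, stress or cytokine signal, without new protein synthesis. Serum response factor with its ETS-family partners, and CREB, relay the signal to many of their promoters, and AU-rich elements in the 3' UTR make many of the mRNAs short-lived. Several of the proteins feed back on the signal: DUSP1 dephosphorylates MAP kinases, and ZFP36 (tristetraprolin) binds AU-rich mRNAs and brings in the deadenylase complex. In liver the class is known for its rapid, transient induction after partial hepatectomy.

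The 10 genes did not move as a block. BTG2, IER5 and ZFP36 were higher in the shPPIL1 library (ratios of 1.51, 1.40 and 1.251), IER3 was lower (0.644), IER2 and EGR1 were lower by smaller factors (0.842 and 0.849), and KLF6, KLF10, BTG1 and DUSP1 lay between 0.944 and 1.04. A ratio is shPPIL1 over shControl after scaling of the library sizes, and the range in brackets after a ratio is its exact 95% counting interval, which covers counting error only. A call required an interval that excluded 1 and a shPPIL1 level at least 25% above, or at least 20% below, that of shControl, which is the same fold in both directions. Of the 10 genes, 3 were called higher, where 5.91% of all kept genes were, and 1 was called lower, where 6.82% of all kept genes were. At 1.5-fold the counts were 1 higher (background 2.02%) and 1 lower (background 2.22%). With the interval alone and no fold, 4 were higher (background 24.6%) and 5 lower (background 26.4%). The median log2 ratio of the 10 genes was -0.022, beside -0.0017 for all kept genes, with 5 ratios above 1 and 5 below. The genes were selected when earlier results of these libraries were known, so these counts describe the 10 genes and support no statement about the class.

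Counted reads numbered 41015345 in shControl and 41165401 in shPPIL1. For equal counts of 1000 the interval reached 1.09-fold. PPIL1 itself had 24.2 FPKM (fragments scaled by gene length and library size) in shControl and 1.67 in shPPIL1, a ratio of 0.0679 (0.0551 to 0.0829). The 8 hepatocyte markers checked were at 81.3 FPKM or more in shControl and 83.9 or more in shPPIL1, and the hepatoma marker AFP was at 4564 and 4612 FPKM. Of the 19 markers of other cell types, 8 passed the filter. They were COL1A1 (1.82 and 2.05 FPKM), LUM (13.8 and 13.7), PECAM1 (1.48 and 1.27), CD68 (19.5 and 18.2) and LYZ (223 and 181). The rest were EPCAM (308 and 328 FPKM), KRT19 (137 and 126) and SOX9 (54.4 and 45.8). Of those that did not pass, COL1A2, KDR and KRT7 had 0 reads in both libraries, and PTPRC had 4 and 10 reads. Mitochondrially encoded genes took 2.43% of reads in shControl and 2.85% in shPPIL1. With these genes left out of the scaling, each of the 10 ratios stayed within its counting interval. A change in RNA per cell cannot be told apart from a change in the mix of cells in such bulk samples, and with 1 hairpin the loss of PPIL1 cannot be told apart from other effects of that hairpin.

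Per gene length, the 10 genes spanned 3.85 to 63.3 FPKM in shControl and 5.47 to 60.6 in shPPIL1. KLF6, DUSP1 and BTG1 were the most abundant in both libraries, in that order, and IER5 the least. Below BTG1 the order in shControl was IER2, KLF10, IER3, ZFP36, EGR1, BTG2 and IER5. In shPPIL1 it was KLF10, ZFP36, IER2, BTG2, IER3, EGR1 and IER5. Counting intervals of neighbours overlapped for IER2 with KLF10 and for IER3 with ZFP36 in shControl, and for KLF10 with ZFP36 in shPPIL1. BTG2 thus stood below EGR1 and IER3 in shControl and above both in shPPIL1. The summed level of the 10 genes was 218 FPKM in shControl and 217 in shPPIL1.

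**Figure D1:**
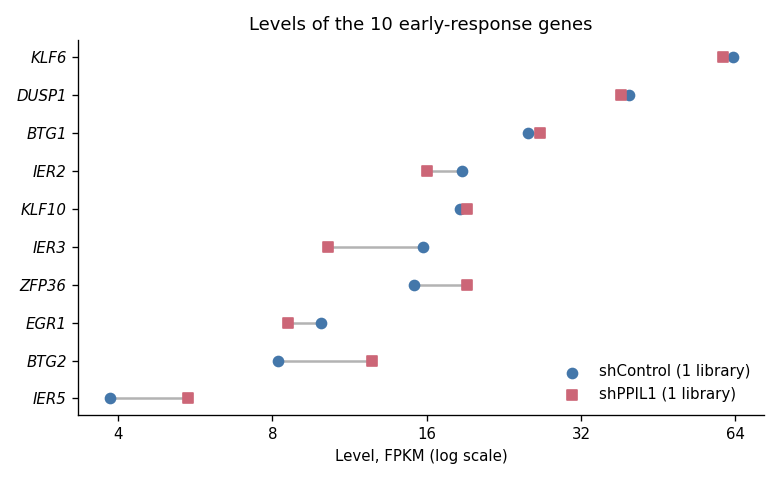
Level of each gene in FPKM (log scale) in the shControl library (circles) and the shPPIL1 library (squares), 1 library each, ordered by the shControl level. KLF6 is highest at 63.3 and 60.6 FPKM, and BTG2 (8.20 and 12.5) and IER3 (15.8 and 10.3) show wide gaps in opposite directions.

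The first group by role is 3 zinc finger transcription factors. EGR1, which binds GC-rich promoter sites and is a classic growth factor response gene, had 1280 reads in shControl and 1106 in shPPIL1, or 9.95 and 8.56 FPKM. The shPPIL1 library was lower, at a ratio of 0.849 (0.783 to 0.921) and too small for a call. KLF6, a Krüppel-like factor with tumour suppressor activity in liver, had 11651 and 11195 reads, or 63.3 and 60.6 FPKM. Its ratio was 0.944 (0.920 to 0.969), within the middle 50% of all kept genes on the log2 scale (-0.13 to 0.12). KLF10, a TGF-beta-inducible repressor, had 1959 and 2034 reads, or 18.5 and 19.2 FPKM. Its ratio of 1.02 (0.958 to 1.09) was the only one of the 10 with an interval that included 1.

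EGR1 lies on chromosome 5 from 138465490 to 138469315 and KLF6 on chromosome 10 from 3775996 to 3785281 (GENCODE 29, GRCh38, as for all gene positions below). The EGR1 promoter is shown because it carries the serum response elements for which the gene is known. It spans the RefSeq transcription start, on the plus strand, at chr5:138465229-138465528 (RefSeq, GRCh38.p14), and its 2 CArG boxes (CC, 6 bases of A or T, GG) are in capitals.
EGR1: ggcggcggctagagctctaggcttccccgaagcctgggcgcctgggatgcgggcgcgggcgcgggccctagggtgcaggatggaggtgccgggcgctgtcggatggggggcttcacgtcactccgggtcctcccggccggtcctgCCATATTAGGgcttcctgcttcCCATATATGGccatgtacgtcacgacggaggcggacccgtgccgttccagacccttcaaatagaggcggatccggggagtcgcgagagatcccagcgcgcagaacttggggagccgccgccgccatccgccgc

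These boxes stand 105 to 96 and 83 to 74 bases before the start. Promoters of 8 of the 10 genes were in the RefSeq table, and those of IER3 and KLF10 were not used here. A CArG box, sought on both strands, was in 1 of these 8, that of EGR1, and in 1.06% of the 10273 promoters of kept genes. The full cAMP response element TGACGTCA was in 1 of the 8, that of DUSP1, and in 3.28% of all. Its shorter form TGACG, which also lies within each full element, was in 5 of the 8 (EGR1, IER2, BTG1, BTG2 and DUSP1) and in 33.9% of all. The EGR site GCGNGGGCG was in 3 of the 8 (EGR1, KLF6 and BTG2) and in 15.3% of all. GGGCGGGG, a site of SP and KLF proteins that can overlap the EGR site, was in 4 of the 8 (IER2, BTG2, ZFP36 and DUSP1) and in 38.5% of all. The AP-1 site TGANTCA and the ETS site CCGGAAGT were in 0 of the 8 (4.24% and 8.76% of all). These matches describe letters in a short window.

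The closest relatives of EGR1 were hardly expressed. EGR2 had 3 and 2 reads, EGR4 2 and 0, and EGR3 and WT1 had 0 reads in both libraries, so EGR1 was the EGR gene measured here. NAB1 and NAB2, corepressors that bind EGR proteins, had ratios of 0.978 (0.923 to 1.04) and 1.17 (1.01 to 1.36). Of 15 other KLF genes, 11 were kept, of which 1 was called higher (background 5.91%) and 2 lower (background 6.82%). Their median log2 ratio was -0.045 (10 of the 11 ratios were below 1). KLF7 was 1.42-fold higher (1.29 to 1.56), KLF15 had a ratio of 0.709 (0.557 to 0.901) and KLF11, the TGF-beta-inducible relative of KLF10, one of 0.756 (0.670 to 0.853). The ratio of KLF10 was 1.35 times that of KLF11 (1.18 to 1.55), and that of KLF6 was 0.667 times that of KLF7 (0.604 to 0.736). Such a quotient of ratios compares a pair of genes within each library, needs no scaling of library sizes, and has an exact 95% counting interval.

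The IER genes had the widest spread within a role. IER3 (IEX-1), a regulator of apoptosis and of ERK signalling, had 800 reads in shControl and 524 in shPPIL1, or 15.8 and 10.3 FPKM. The shPPIL1 library was lower, at a ratio of 0.644 (0.575 to 0.719), or 1.55-fold, at percentile 1.93 of the log2 ratios of all kept genes. IER5, a regulator of heat shock factor and of cell division, had 663 and 946 reads, or 3.85 and 5.47 FPKM. Its shPPIL1 level was higher, at a ratio of 1.40 (1.27 to 1.55), at percentile 96.9. IER2, a nuclear protein induced by growth factors, had 1624 and 1391 reads, or 18.8 and 16.0 FPKM, and a ratio of 0.842 (0.783 to 0.905).

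Within this group IER3 had 1.21 reads for each IER5 read in shControl and 0.554 in shPPIL1, a quotient of 0.459 (0.395 to 0.534). The ratio of IER2 was 0.600 times that of IER5 (0.530 to 0.680) and 1.31 times that of IER3 (1.14 to 1.49). IER5L, the closest relative of IER5, had 314 and 252 reads and a ratio of 0.788 (0.665 to 0.934), opposite in direction to IER5. The ratio of IER5 was 1.78 times that of IER5L (1.46 to 2.17). IER3IP1, an endoplasmic reticulum protein named for its interaction with IER3, was 1.39-fold higher (1.27 to 1.51). IER2 lies on chromosome 19 from 13150415 to 13154908, IER3 on chromosome 6 from 30743199 to 30744554, and IER5 on chromosome 1 from 181088712 to 181092899. Antisense genes share 1123 bases with IER2 and 394 with IER3. The strand setting of the counting is not given in the sources used here, so reads from these partners cannot be told apart from those of IER2 and IER3.

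**Figure D2:**
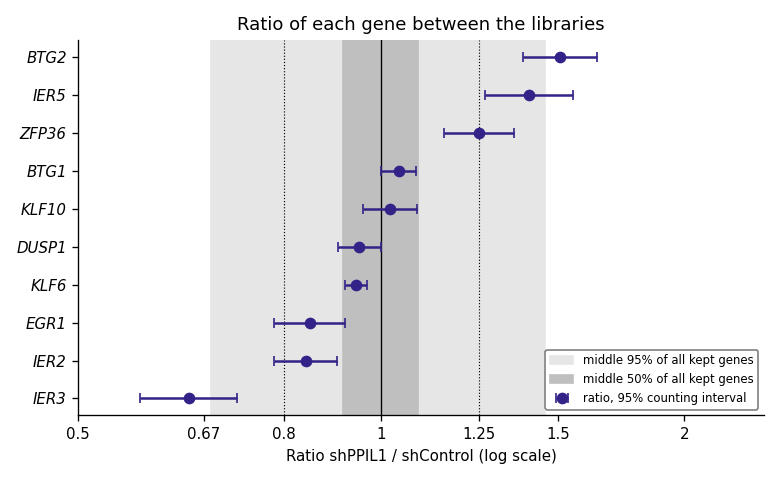
Ratio of each gene, shPPIL1 over shControl (log scale), with its 95% counting interval. Dark and light bands hold the middle 50% and 95% of all 12540 kept genes, and dotted lines mark the fold needed for a call. BTG2 (1.51) and IER3 (0.644) lie outside the light band, and KLF10, BTG1, KLF6 and DUSP1 lie within the dark band.

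BTG1 and BTG2 are antiproliferative proteins that bind the CNOT7 and CNOT8 deadenylases and promote poly(A) shortening, and BTG2 is also a p53 target. BTG2 had 918 reads in shControl and 1407 in shPPIL1, or 8.20 and 12.5 FPKM. The shPPIL1 library was higher, at a ratio of 1.51 (1.38 to 1.64), at percentile 98.0 of all kept genes and the highest of the 10. BTG1 had 4799 and 5085 reads, or 25.3 and 26.7 FPKM, and a ratio of 1.04 (1.0006 to 1.08), which excluded 1 narrowly. BTG1 relative to BTG2 went from 5.23 reads per read in shControl to 3.61 in shPPIL1, a quotient of 0.691 (0.630 to 0.759), so these 2 relatives differed by more than counting error. BTG1 lies on chromosome 12 from 92140278 to 92145897 and BTG2 on chromosome 1 from 203305491 to 203309602. BTG1 shares 2637 bases with the transcribed locus LINC01619 on its own strand, and 5.23% of its 100-base windows matched LINC01619 transcripts. The antisense gene AC025164.1 shares another 325 bases with BTG1, and reads from either partner cannot be told apart from those of BTG1. None of the 9 other genes had a window that matched a gene elsewhere.

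No other BTG/TOB gene and no gene of the deadenylase list was called higher. Of all kept genes, 5.91% were called higher and 6.82% lower, so 0 called higher in lists this small is near that share. BTG3 had a ratio of 1.09 (1.02 to 1.17), TOB1 0.973 (0.935 to 1.01) and TOB2 0.981 (0.940 to 1.02), and BTG4 had 2 and 0 reads. The ratio of BTG2 was 1.38 times that of BTG3 (1.24 to 1.54), and for BTG1 against BTG3 the quotient was 0.954 (0.880 to 1.03). Of 14 genes for deadenylases and non-catalytic partners in their complexes, 0 were called higher and 2 lower. These were CNOT7, a catalytic subunit that BTG proteins bind, at 0.718 (0.694 to 0.743), and PARN, the poly(A)-specific ribonuclease, at 0.738 (0.689 to 0.790). CNOT8, the paralogue of CNOT7, had a ratio of 1.00 (0.956 to 1.05). The median log2 ratio of the 14 genes was -0.094. With the interval alone and no fold, 2 of the 14 were higher (background 24.6%) and 8 lower (background 26.4%). Of 21 kept p53 targets, 0 were called higher (background 5.91%) and 4 lower (background 6.82%), with a median log2 ratio of -0.025. CDKN1A, the cell cycle inhibitor, had a ratio of 0.847 (0.809 to 0.887) and MDM2, the p53 ubiquitin ligase, 0.806 (0.773 to 0.841), and the lowest ratios in that list were those of PLK3 (0.661, 0.513 to 0.850) and AEN (0.706, 0.639 to 0.780). CNOT8, CDKN1A and MDM2 were named after their values were seen.

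ZFP36, the RNA decay factor, had 1083 reads in shControl and 1379 in shPPIL1, or 15.1 and 19.2 FPKM. The shPPIL1 library was higher, at a ratio of 1.251 (1.15 to 1.36). That is just inside the threshold, so the call turns on where the threshold is set. The paralogue ZFP36L1 had a ratio of 0.929 (0.887 to 0.973) and ZFP36L2 one of 1.03 (0.997 to 1.07). The ratio of ZFP36 was 1.35 times that of ZFP36L1 (1.23 to 1.48) and 1.21 times that of ZFP36L2 (1.11 to 1.32). Of 15 AU-rich element binding proteins, 0 were called higher (background 5.91%) and 0 lower (background 6.82%). ZFP36L1 and ZFP36L2 were named after their values were seen. ZFP36 lies on chromosome 19 from 39406813 to 39409412.

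Of 22 listed target mRNAs of ZFP36, 15 were kept, of which 1 was called higher (background 5.91%) and 1 lower (background 6.82%). Their median log2 ratio was 0.0055. PLAU, the urokinase, was 1.37-fold higher (1.23 to 1.54) and PLK3, a stress-induced kinase, had a ratio of 0.661 (0.513 to 0.850). The chemokine CXCL8 had a ratio of 1.01 (0.981 to 1.04) and VEGFA, the vascular growth factor, 0.999 (0.969 to 1.03). Not all targets were this close to 1. With the interval alone and no fold, 4 of the 15 were higher (background 24.6%) and 4 lower (background 26.4%). TNF, the best known target, had 25 and 34 reads and did not pass the filter. CXCL8, VEGFA and TNF were named after their values were seen.

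AU-rich elements were present in genes of both directions. The 7-base element TATTTAT, a core of ZFP36 binding sites, was sought on the transcript strand of the 3' UTR of the GENCODE 29 transcript with the longest coding sequence, with overlapping matches counted. It was in 7 of the 10 genes and in 31.5% of the 11960 kept genes with a 3' UTR. The share depends on length: genes with the element had a median 3' UTR of 2372 bases and those without it 653. Of the 10 genes, 7 had a 3' UTR longer than the median of all, 1001 bases, from 1050 in IER2 to 3802 in BTG1, and 4 of these 7 carried the element. The shorter ATTTA was in 9 of the 10, IER2 being the exception, and in 68.2% of all. A site of 30 bases is shown for each of the 7 genes with the longer element, in order of their ratio, since the lowest and the higher genes of the 10 share it. Each was cut from the transcript sequence 5' to 3', and the capitals mark TATTTAT. The first 3 genes are the ones called higher and the last is the one called lower.
BTG2: aaatgaagagcTATTTATatatattatttt
IER5: gtgtcttccttTATTTATTTATTTATttaa
ZFP36: aatgggcccttTATTTATgacgactttatt
BTG1: aatagatttctTATTTATctgaaggtatac
DUSP1: gggctggtcctTATTTATttaacttcaccc
KLF6: tatgtttctctTATTTATgccttgaggact
IER3: ctcctaattaaTATTTATatgTATTTATgt

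In GRCh38 these sites are at chr1:203307528-203307557 (plus strand, BTG2), chr1:181092443-181092472 (plus, IER5), chr19:39409181-39409210 (plus, ZFP36), chr12:92140769-92140798 (minus, BTG1), chr5:172768642-172768671 (minus, DUSP1), chr10:3778340-3778369 (minus, KLF6) and chr6:30743652-30743681 (minus, IER3), each in an exon's 3' UTR. IER3 and IER5, with ratios of 0.644 and 1.40, both had 4 copies of TATTTAT. In IER5, 3 of them overlap in 1 run. ZFP36 and DUSP1 had 3 each, BTG1, BTG2 and KLF6 had 1 each, and EGR1, KLF10 and IER2 had 0. Over the kept genes with a 3' UTR the median log2 ratio was -0.0042 in the 3770 with the element and -0.0015 in the 8190 without it.

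**Figure D3:**
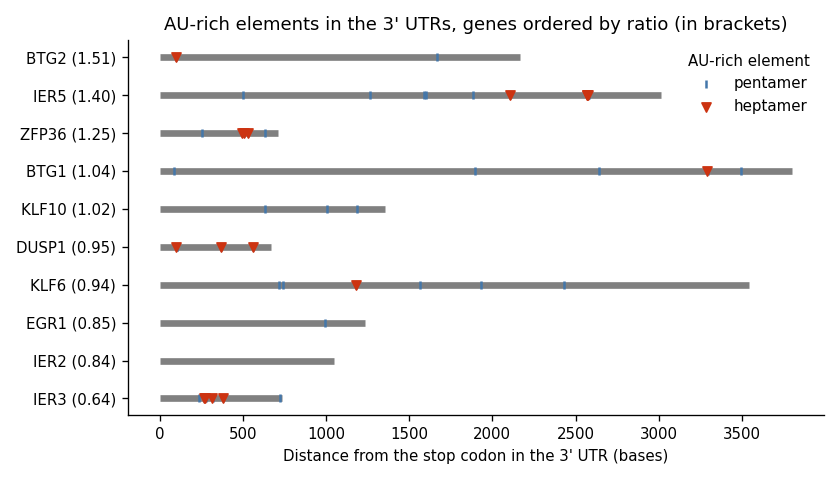
AU-rich elements along each 3' UTR, in bases from the stop codon, with genes ordered by their ratio, given in brackets. Blue ticks mark the 5-base element ATTTA and red triangles the 7-base element TATTTAT. IER3 (4 triangles, ratio 0.644) and IER5 (4 triangles, ratio 1.40) stand near opposite ends of the order.

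The 10 genes have few exons. Their coding sequence is in 1 exon in IER2 and IER5, in 2 exons in EGR1, IER3, BTG1, BTG2 and ZFP36, and in 4 in KLF6, KLF10 and DUSP1, and kept genes with a gene model had a median of 9 exons per transcript. The genes with a single coding exon stood on both sides, with IER5 at 1.40 and IER2 at 0.842. Over the 12104 kept genes with a gene model the median log2 ratio was -0.0094 for the 228 genes with 1 exon, -0.0023 for the 538 with 2, 0.0094 for the 2430 with 3 to 5, and -0.0050 for the 8908 with 6 or more. The 6-base motif GATCAT was sought because of earlier results of these libraries, which are not shown here. It was in the 3' UTR of 2 of the 10 genes (BTG1 and IER5) and of 24.0% of all. Both have long 3' UTRs (3802 and 3013 bases, beside the median of 1001), and the share was not adjusted for length.

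DUSP1, the nuclear phosphatase that switches off p38, JNK and ERK, had 3273 reads in shControl and 3169 in shPPIL1, or 39.6 and 38.2 FPKM. The libraries were close, at a ratio of 0.951 (0.906 to 0.999). Its interval excluded 1 only narrowly and included 1 with DESeq2 size factors (0.908 to 1.002) and with total counts (0.918 to 1.01). DUSP1 lies on chromosome 5 from 172768090 to 172771195, and the antisense gene AC022217.3 shares 3106 bases with it, so their reads cannot be told apart. Its cAMP response element stood 125 to 118 bases before the start, and the site, with 10 bases on either side, is on the minus strand at chr5:172771303-172771330 (RefSeq, GRCh38.p14), with the element in capitals.
DUSP1: gcagggcgggTGACGTCAccgccccgtc

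Phosphatases of the family that are ERK feedback targets had lower ratios than DUSP1. DUSP4 had a ratio of 0.766 (0.718 to 0.816), DUSP5 0.729 (0.677 to 0.784) and DUSP6 0.727 (0.693 to 0.762). The ratio of DUSP1 was 1.24 times that of DUSP4 (1.15 to 1.35), 1.31 times that of DUSP5 (1.19 to 1.43) and 1.31 times that of DUSP6 (1.22 to 1.40). DUSP8 and DUSP10, which prefer JNK and p38, were 1.31-fold (1.17 to 1.45) and 1.26-fold (1.11 to 1.44) higher. DUSP7 and DUSP9, which prefer ERK, had ratios of 1.19 (1.06 to 1.35) and 1.21 (1.18 to 1.24), so the phosphatases that act on ERK stood on both sides of 1. DUSP4, DUSP7 and DUSP9 were named after their values were seen. Of the 9 kept members of that list, 2 were called higher (background 5.91%) and 3 lower (background 6.82%).

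**Figure D4:**
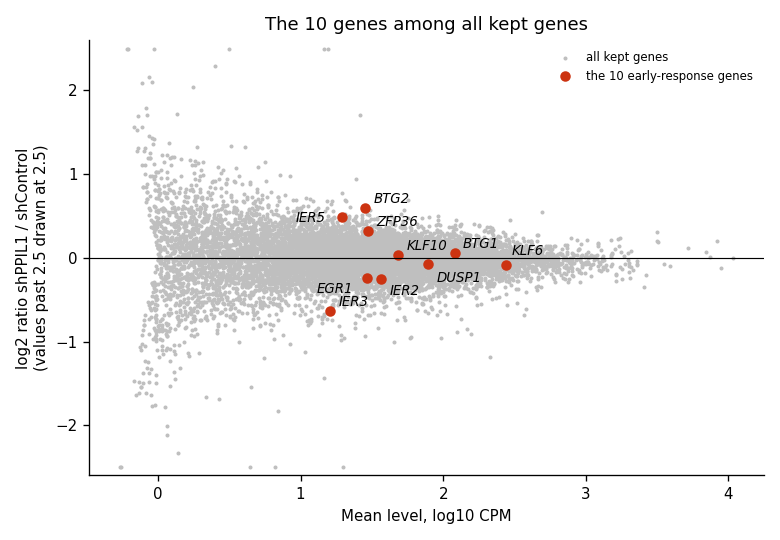
Log2 ratio of each kept gene against its mean level in log10 CPM, with the 10 early-response genes in red. BTG2, IER5 and ZFP36 lie above the axis and IER3 below it, while the most abundant, KLF6, BTG1 and DUSP1, lie close to 0.

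AP-1 subunits and ERK feedback targets had more genes called lower than higher. So did all kept genes by a narrower margin (855 lower, or 6.82%, and 741 higher, or 5.91%). Of 10 kept AP-1 subunits, 0 were called higher and 5 lower, with a median log2 ratio of -0.26. FOS and FOSB had ratios of 0.515 (0.464 to 0.570) and 0.435 (0.354 to 0.533). EGR1, which shares with FOS its control by serum response elements, had a ratio 1.65 times that of FOS (1.45 to 1.88) and 1.95 times that of FOSB (1.57 to 2.44). Of 16 kept ERK feedback targets, 1 was called higher and 8 lower, with a median of -0.34. SPRY1, a Sprouty inhibitor of receptor signalling, had a ratio of 0.673 (0.627 to 0.722), and ETV1, an ETS factor, was 1.30-fold higher (1.13 to 1.5). The lists share DUSP and other genes, and the differences between list medians were not tested.

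Of 41 kept immediate-early genes outside the 10 and outside AP-1, 1 was called higher (background 5.91%) and 7 lower (background 6.82%). Their median log2 ratio was -0.00019. SOCS3, the cytokine signalling suppressor, was 1.51-fold higher (1.31 to 1.75), and PLK3 and SIK1, a salt-inducible kinase, had ratios of 0.661 and 0.102. SIK1 has a near-identical copy, so its row need not measure that gene alone. Of the 31 regulators upstream of this class, 0 were called higher (background 5.91%) and 1 lower (background 6.82%). That was MAP2K1, the kinase that activates ERK, at 0.759 (0.726 to 0.794). SRF, the serum response factor, had a ratio of 0.849 (0.786 to 0.917), and its partner ELK1 one of 1.249 (1.15 to 1.36), just short of the threshold. SRF and ELK1 were named after their values were seen. A TGF-beta list, set beside KLF10, held target genes and also receptors and SMAD proteins of the pathway. Of its 17 kept genes, 0 were called higher (background 5.91%) and 2 lower (background 6.82%). The 2 were JUNB at 0.778 (0.709 to 0.854) and TGFB1 at 0.796 (0.698 to 0.907).

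**Figure D5:**
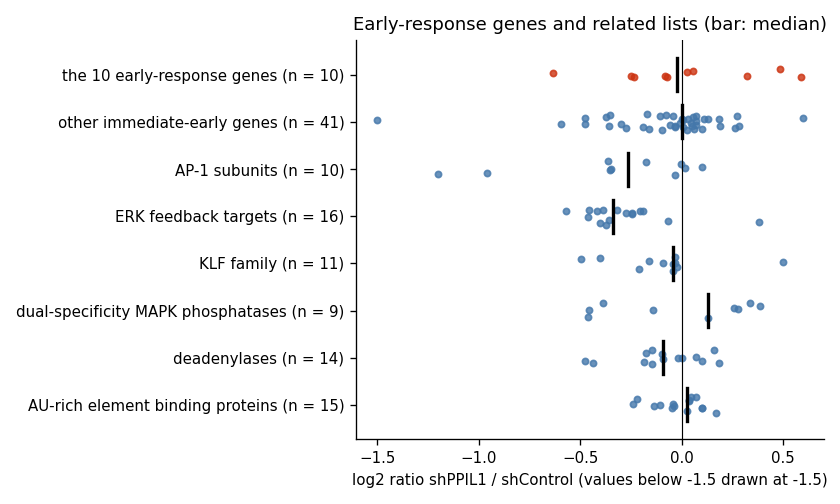
Log2 ratio of each kept gene in the 10-gene group (red) and in 7 related lists (blue), with list medians as black bars. The 10 genes spread from -0.64 to 0.59 around a median of -0.022, beside medians of -0.26 for AP-1 subunits and -0.34 for ERK feedback targets.

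Among the 10 genes, 39 of 45 pairs had a quotient of ratios whose counting interval excluded 1, and so did all 7 pairs within a role. For 12 pairs of a member with a gene of another list, 11 intervals excluded 1. These 12 were chosen after their values were seen, so that count supports no statement. The 45 pairs rest on only 10 ratios and are not independent. The share over pairs of all kept genes was not computed, so these counts do not set the 10 genes apart. For single kept genes the interval alone excluded 1 for 24.6% on the higher side and 26.4% on the lower. These quotients compare 2 libraries and not the conditions.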

How the data were processed

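Messenger RNA was selected with poly(T), fragmented and sequenced, per the labels' protocols, from 1 shControl and 1 shPPIL1 culture of Huh7. The authors deposited raw counts per gene and FPKM values per gene. Dividing each count by its library total and its FPKM gave a whole-number gene length (tolerance 0.001 bases) for 99.9% of genes above 0. The submitters' processing notes name build hg38. The aligner, counter and strand setting are not given in the sources used. Another 7 columns of counts match no label and were not used.

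Library sizes were multiplied by TMM factors (edgeR 4.0.16 in R 4.3.3), 0.993 for shControl and 1.01 for shPPIL1, and genes at 1 CPM or more in at least 1 library were kept. Ratios have exact Clopper-Pearson 95% intervals (scipy 1.17.1), and pairs of genes exact conditional odds ratio intervals. The labels name no molecular identifiers, and PCR reads may copy 1 molecule, so intervals cover counting error only. The interval step was run on simulated counts with counting error only, which is what the interval assumes. That run checks the calculation and says nothing about other variation in these libraries. Alternatives were DESeq2 1.42.0 size factors, total counts, scaling without mitochondrial genes, 0 or 5 CPM and log2(FPKM + 1). Gene models came from GENCODE 29 and promoters from RefSeq.

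The 10 genes and the lists were chosen with earlier results of these data known. All 10 genes were named, with small lists in full and, of each other list, up to 2 higher and 2 lower genes past the call threshold by size. Genes outside this rule are marked in the text as named after their values were seen, and pairs of a member with a gene of another list were chosen likewise. A likeness of pattern was not ranked, since 2 libraries give 1 ratio per gene.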

Additional observations from a re-analysis of the deposited data

How the results depend on the processing

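Each ratio of the 10 genes stayed within its own counting interval under the 3 other scalings and with log2(FPKM + 1), 40 values in all, with BTG2 between 1.47 and 1.53, IER5 between 1.33 and 1.42, ZFP36 between 1.251 and 1.27 and IER3 between 0.644 and 0.673. With log2(FPKM + 1), which understates changes of low genes, 0 genes reached 1.5-fold higher and 0 lower. With an interval excluding 1 at any fold, an alternative chosen after seeing the data, 4 of the 10 were higher (background 24.6%) and 5 lower (background 26.4%). The median log2 ratio of the EGR and NAB list was 0.0997, from NAB1 and NAB2. Without a filter on low counts it changed sign to -0.032, since EGR2, with 3 and 2 reads, entered the list. EGR4, with 2 and 0 reads, has no finite log2 ratio and was left out of that median. Among the related lists, AP-1 subunits had 2 called lower with log2(FPKM + 1) instead of 5, and 1 called higher instead of 0 without a filter. ERK feedback targets had 3 called higher without a filter and 0 with log2(FPKM + 1), instead of 1. ELK1 passed the threshold with DESeq2 size factors and with total counts, so that 1 regulator instead of 0 was called higher. KLF genes had 2 called higher instead of 1 without a filter, and 1 and 0 called lower instead of 2 at 5 CPM and with log2(FPKM + 1). The TGF-beta list had 1 and 0 called lower instead of 2 with total counts and log2(FPKM + 1). Target mRNAs of ZFP36 had 0 called lower instead of 1 at 5 CPM. With log2(FPKM + 1) the phosphatases had 0 called higher instead of 2 and IER5L was not called lower. No paired analysis was possible because each group has 1 library. Leaving out a library was not possible for the same reason. Depth limits IER3 and IER5 most, with 524 to 946 reads per library.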
